A study of Mus musculus with 15 samples.

Results

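The promoters of Npas4, Junb, Maff, Klf4, Nfil3 and Ier5 were examined in a promoter-capture Hi-C table of mouse hippocampal neuronal nuclei. These 6 genes were chosen by name as inducible transcription regulators, and each row of the table that carries one of their names was taken. They account for 6 of 4429 promoters and for 88 of 36353 listed pairs of a promoter and a HindIII fragment. Promoter-capture Hi-C ligates and sequences fragments that lie close together in the nucleus and enriches the ligation products of chosen promoters with RNA baits. The mice carried ArcCreERT2, a tamoxifen-dependent recombinase driven by the promoter of the activity-regulated gene Arc, and a floxed-stop eYFP reporter at R26R, with the genotype given as +/+ and no age. The reporter is thus switched on for good in cells that use the Arc promoter under 4-hydroxytamoxifen. The protocol, shared by all samples, gives the drug 1 h ahead of contextual fear conditioning, and nuclei were sorted with antibodies to NeuN and GFP. Hippocampi of 10 to 12 mice were pooled for each condition, so no value belongs to a single animal. By their titles, 3 of the 15 libraries are Basal, and 4 are in each of the groups Early, Late and Reactivated. Brains were taken after 1.5 to 2 h or after 5 days, and at 5 days part of the mice met the cue again, but the protocol does not tie these times to the group names. The treatment labels give a foot shock and no recall for every sample, Basal and Reactivated included, so what sets the Basal animals apart cannot be read from them. Contact scores hold no expression values, so the neuronal identity of the nuclei was not checked against marker genes.

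Immediate early genes are switched on within minutes of synaptic activity without new protein synthesis, through calcium-regulated kinases and factors such as CREB, SRF and MEF2 that already sit at their promoters. Their products are mostly transcription factors that set off a second wave of genes, and in hippocampal neurons they are widely used as marks of recent activity. Npas4 is a bHLH-PAS factor induced by calcium entry in neurons, and Junb is a bZIP partner in AP-1 dimers. Maff is a small Maf protein, a bZIP factor with no activation domain of its own, and Klf4 is a zinc finger factor of the Krüppel-like family. Nfil3 is a bZIP repressor also known as E4BP4, and Ier5 is an immediate early response gene whose product acts with the heat shock factor HSF1. Contacts between such promoters and distal fragments are one route by which enhancers may reach them.

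The promoters are shown by stretches before annotated starts that hold a cyclic AMP response element, the DNA site of CREB, or its half-site. Bait positions were not used, so these starts may not be the baited ones. Only the Maff stretch holds the whole element. The other stretches hold the half-site alone, and Ier5, which had neither, is not shown. The element is a well-known entry point of activity to immediate early genes. All 6 symbols were matched in RefSeq, with 8 start sites, 3 of them for Maff. The sequences are credited to RefSeq on build GRCm38.p6, read 5′ to 3′ along the gene, and their coordinates are not those of the contact table, which is on mm9. Capitals mark the motif.

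Npas4, chr19:4990104-4990183, minus strand, 212 to 133 bases before the start: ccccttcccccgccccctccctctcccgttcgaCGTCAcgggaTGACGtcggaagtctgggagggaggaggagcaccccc

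Junb, chr8:84978813-84978892, minus strand, 144 to 65 bases before the start: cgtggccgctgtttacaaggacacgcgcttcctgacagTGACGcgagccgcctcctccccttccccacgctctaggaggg

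Maff, chr15:79347440-79347519, plus strand, 80 to 1 bases before the second of its starts: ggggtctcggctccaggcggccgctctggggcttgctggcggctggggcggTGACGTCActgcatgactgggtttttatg

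Klf4, chr4:55532646-55532725, minus strand, 250 to 171 bases before the start: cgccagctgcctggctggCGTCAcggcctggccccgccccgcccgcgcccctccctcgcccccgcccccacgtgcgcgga

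Nfil3, chr13:52981057-52981136, minus strand, 97 to 18 bases before the start: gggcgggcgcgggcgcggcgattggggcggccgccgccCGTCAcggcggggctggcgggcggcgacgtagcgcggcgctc

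The whole element, TGACGTCA, was found within 250 bases before a single one of the 8 starts, that of Maff shown here, and in 1.55% of 32851 such windows of all genes. Its half-site, TGACG on either strand and counted also inside the whole element, was found in 6 of the 8 windows of the members, 2 of them of Maff and none of Ier5, and in 17.8% of all windows. The letters of the HindIII site used for the contact libraries, AAGCTT, occurred 6 bases into the transcribed part of the Junb window, and in 7.46% of all windows of 300 bases. A match of letters is a description and does not show that a factor binds.

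The values are the authors' interaction scores, whole numbers of 2 to 13683 with a dot where no score is listed, which enters here as 0. The libraries differed widely. They held from 35 to 12133 scored pairs, with sums of scores between 3114 (Reactivated library 1) and 9590409 (Reactivated library 4), and median scores from 10 to 313. Read depth is unknown. Libraries 1 and 2 of Basal, Late and Reactivated, and libraries 3 and 4 of Early, Late and Reactivated, shared 48.3% to 100% of the fragments of the smaller library, whereas other pairs of a group shared at most 16.7%. Each such pair is called a library set, which leaves 9 sets, and p-values over 15 libraries treat libraries of a set as independent. Reactivated libraries 1 and 2, with 35 and 388 scored pairs in all, held 0 scores for the 6 promoters. A 0 in these libraries therefore cannot be told apart from a library with few listed pairs, and every Reactivated score of the 6 promoters comes from libraries 3 and 4. Reactivated means, SDs and tests nevertheless include all 4 libraries unless stated. Each pair in the table had a score in at least 1 library, so a fragment scored in a single group entered the table through that group.

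The number of listed fragments differed between the 6 promoters. Ier5 had 31, more than 98.9% of all promoters, Npas4 and Klf4 had 14 each, Junb 13, Nfil3 12 and Maff 4, against a median of 6 over all promoters. The fragments of each promoter lay on a single chromosome, and their median length was 2982 bp, against 2964 bp over all listed pairs. Of the 88 fragments, 70 lay within 1 Mb of the median position of their promoter's fragments. This median stands in for the bait, whose position was not used here. The near fragments of Junb covered 251 kb and those of Nfil3, Npas4, Maff, Klf4 and Ier5 covered 439, 636, 685, 1014 and 1299 kb. The other 18 fragments, or 20.5%, lay farther away, up to 117 Mb for Ier5, and 12 of these 18 were scored in a single library. Over all listed pairs, 22.2% lay more than 1 Mb away, and 62.7% of those were scored in a single library. The members thus had a share of far fragments near that of the whole table.

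**Figure D1:**
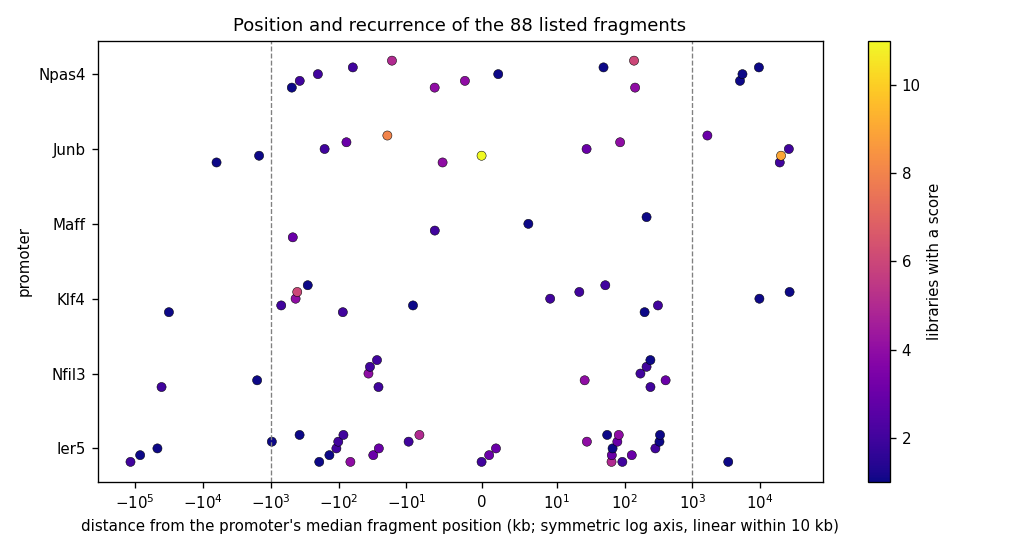
Each of the 88 listed fragments is a point placed by its distance in kb from the median fragment position of its promoter (symmetric log axis, linear within 10 kb), with colour giving the number of libraries that scored it. Dashed lines mark 1000 kb; 70 fragments lie between them, and the 11-library fragment of Junb lies at 0.

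Recurrence across libraries was low. Of the 88 fragments, 29 (33.0%) were scored in a single library, 51 (58.0%) in a single library set and 54 (61.4%) in a single group, against 32.7%, 65.6% and 67.1% of all listed pairs. Only 2 fragments, both of Junb, were scored in all 4 groups. Neighbouring fragments were often listed together: 12 of the 88 were followed directly by another listed fragment of the same promoter, 8 of them for Ier5 and 3 for Nfil3, a share of 13.6% against 8.11% over the whole table. No test of these shares was made, since fragments of a promoter share their bait and their libraries.

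**Figure D2:**
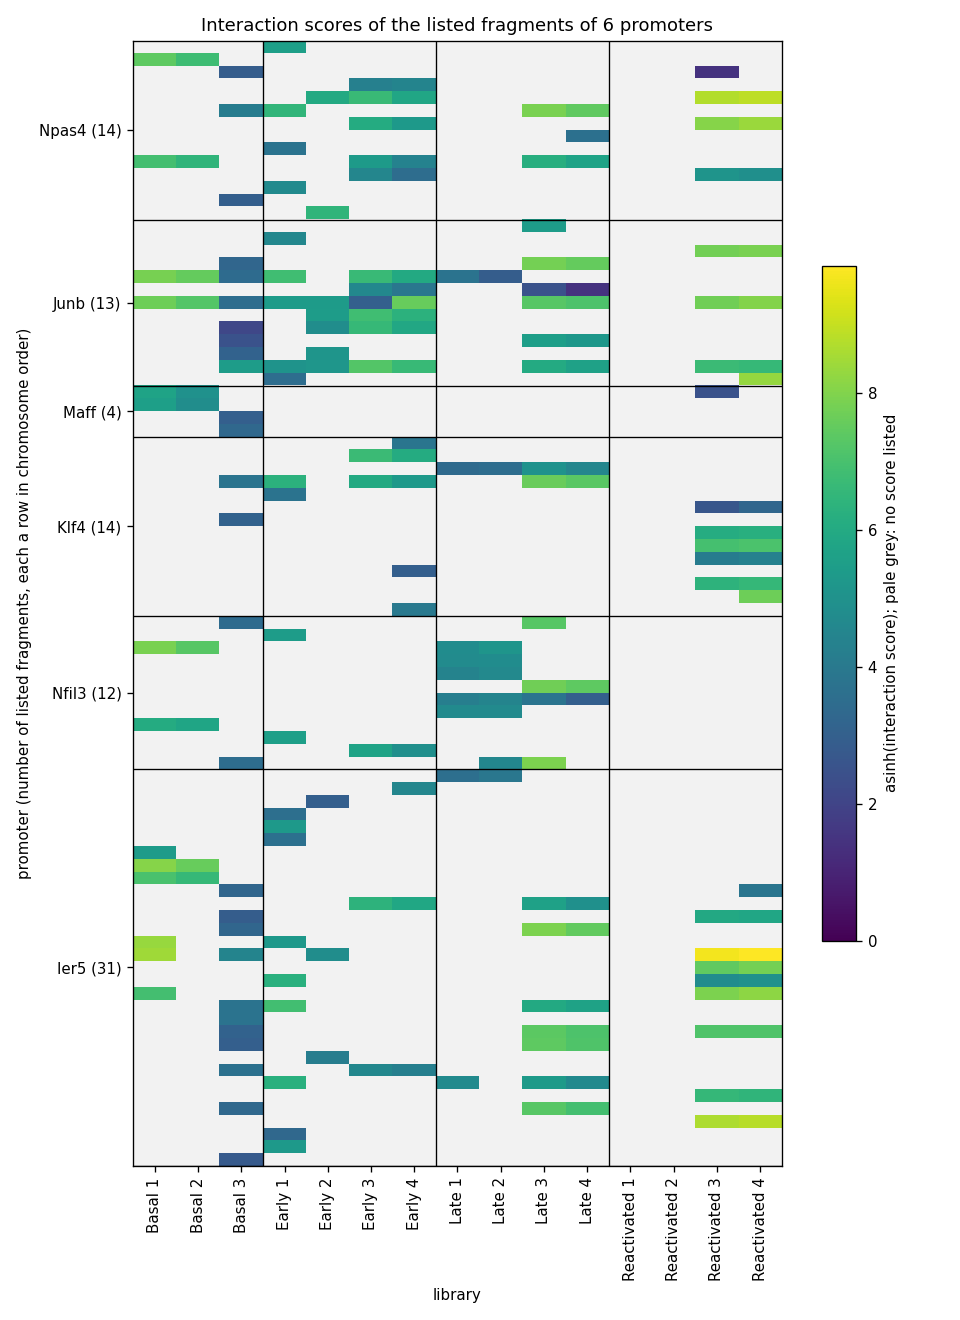
Interaction scores on the asinh scale (colour) of the 88 listed fragments, ordered by promoter and then along the chromosome (rows), in the 15 libraries ordered by group (columns); pale grey marks no listed score. Most coloured cells lie in runs of neighbouring columns, the library sets, and Reactivated libraries 1 and 2 are empty.

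Npas4 had its highest scores in Reactivated libraries 3 and 4, at fragments that Early libraries scored too. Those 2 Reactivated libraries also had the largest sums of scores of all libraries. Their median scores were 308 and 313, against 155, 100 and 64 in Early libraries 2, 3 and 4, so raw scores are not on the same scale. A short fragment at chr19:4985147-4985511 had scores of 200, 399 and 170 in Early libraries 2, 3 and 4, of 3064 and 3571 in Reactivated libraries 3 and 4, and none in Early library 1, in Basal or in Late. Its mean on the asinh scale was 4.63 higher in Early than in Basal with a standard error of 2.41 (limma adjusted p = 0.489) and 4.40 higher in Reactivated than in Late with a standard error of 2.23 (limma adjusted p = 0.189), so neither passed. The fragment at chr19:4999178-4999583, some kilobases along, was scored in the same pattern less Early library 2, with 212 and 104 in Early libraries 3 and 4 and 1621 and 2157 in Reactivated libraries 3 and 4.

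A second kind of Npas4 fragment was scored in Basal, Early and Late but not in Reactivated. At chr19:5137577-5140865 the scores were 511 and 319 in Basal libraries 1 and 2, 106 and 39 in Early libraries 3 and 4, and 243 and 151 in Late libraries 3 and 4. This fragment was scored in 6 libraries, the most for Npas4, and was listed also with Catsper1, Cnih2 and Sf3b2, so its score cannot be assigned to Npas4 alone. At chr19:4993438-4997286, between the fragments with Early and Reactivated scores, the scores were 31 in Basal library 3, 326 in Early library 1, and 1311 and 847 in Late libraries 3 and 4. Of the other 10 Npas4 fragments, 6 were scored in a single library, with scores of 10 to 315. They include the 3 fragments beyond 1 Mb, the farthest at 9.58 Mb from the median.

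Called interactions, taken as fragments with a score of 5 or more, gave Npas4 2, 2 and 3 in Basal libraries, 4, 2, 5 and 5 in Early, 0, 0, 2 and 3 in Late, and 0, 0, 3 and 3 in Reactivated. Early and Late overlapped only between 2 and 3, and Early and Basal overlapped as well. The Early mean of 4 ± 1.41 (SD, n = 4) compares with a Basal mean of 2.33 ± 0.577 (SD, n = 3), and the Late mean of 1.25 ± 1.5 (SD, n = 4) with that of Early. By limma on the log2 of 1 plus the number of calls, adjusted over 4403 promoters, p was 0.988 for Early against Basal and 0.638 for Late against Early.

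Junb was listed with the most widely scored fragments of the 6 promoters. Those scored in 11, 9 and 8 libraries were each listed with another promoter too. Fragments listed with Junb alone were scored in at most 4 libraries, against 6 for a Klf4 fragment listed with no other promoter. The fragment at chr8:87511025-87512386 was scored in 11 libraries, with 1077, 682 and 17 in Basal, 113, 114, 10 and 981 in Early, 729 and 602 in Late libraries 3 and 4, and 1123 and 1542 in Reactivated libraries 3 and 4. The 4 libraries without a score were Late 1 and 2 and Reactivated 1 and 2. Early library 3 and Early library 4, which form a set, gave scores of 10 and 981 here, whereas for 14 of the 16 fragments of the 6 promoters scored in both, library 3 was the higher. This fragment sits at the median position of both Junb and the peroxiredoxin gene Prdx2, and it was listed with both promoters. Fragments scored in 9 or more libraries made up 0.487% of all listed pairs.

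The other Junb fragment seen in all 4 groups lay far from the rest. At chr8:107821241-107824615, 20.3 Mb from the Junb median, the scores were 116 in Basal library 3, 79, 89, 691 and 385 in Early, 208 and 141 in Late libraries 3 and 4, and 414 and 377 in Reactivated libraries 3 and 4. It was scored in 9 libraries, all 4 Early libraries among them. It was also listed with Elmo3, a gene of the engulfment and Rac activation pathway, and lies at the median position of the 15 fragments of that promoter. Both listings carry the same scores, so these cannot be assigned to either promoter.

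A Junb fragment was scored in every Basal library and in no Reactivated library. At chr8:87491274-87494111 the scores were 1260, 918 and 16 in Basal, 458, 399 and 199 in Early libraries 1, 3 and 4, 21 and 9 in Late libraries 1 and 2, and none in Late libraries 3 and 4 or in Reactivated. The asinh mean differed by -6.27 between Reactivated and Basal with a standard error of 2.65 (limma adjusted p = 0.207). It was listed also with Isyna1, whose other fragments have their median 7.50 Mb away. Of all listed pairs, 358 had a score in each Basal library and in no Reactivated library.

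Near the Junb median, 2 further fragments carried scores in Early libraries 2, 3 and 4 and almost nowhere else. At chr8:87537142-87541155, listed also with Hook2, the scores were 117, 465 and 278, with none in any other library. At chr8:87595211-87599663, listed also with Prdx2, they were 62, 367 and 182, with a score of 4 in Basal library 3. A fragment at chr8:87348793-87353755 was scored in Reactivated libraries 3 and 4 alone, at 1157 and 1338. The highest score of a Junb fragment, 2043 in Reactivated library 4 at chr8:113999583-114018817, was not matched in Reactivated library 3, which had none, and the fragment was shared with Myo9b and lay 26.5 Mb from the Junb median. In all, 7 of 13 Junb fragments were shared with another promoter, against 15.4% of all listed pairs and 13.6% of the 88.

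Junb had 2, 2 and 6 called interactions in Basal, 5, 5, 6 and 6 in Early, 1, 1, 6 and 4 in Late, and 0, 0, 3 and 4 in Reactivated. Early libraries averaged 5.5 ± 0.577 (SD, n = 4) and Basal libraries 3.33 ± 2.31 (SD, n = 3). Reactivated, with 1.75 ± 2.06 (SD, n = 4), did not overlap with Early, and this was the lower side for 0.636% of 4403 promoters. These counts include the fragments shared with other promoters. On the fragments listed with Junb alone, Reactivated and Early did overlap. The limma adjusted p was 0.982 for Early against Basal, 0.867 for Late against Early and 0.688 for Reactivated against Early.

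Maff had the fewest fragments, and scores were almost confined to Basal. At chr15:78923955-78925758 the scores were 152 and 73 in Basal libraries 1 and 2 and 6 in Reactivated library 3. At chr15:79390612-79392446 they were 132 and 64 in Basal libraries 1 and 2. The fragments at chr15:79401152-79406756 and chr15:79607649-79609097 had scores of 10 and 14 in Basal library 3. No score was listed for Maff in any Early or Late library. The first of these fragments was listed also with Sox10, a gene of the glial and neural crest lineages. Basal library 3 and Basal libraries 1 and 2 had no Maff fragment in common, so the 3 libraries had the same number of contacts but at different places.

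Called Maff interactions thus numbered 0 in every Early and every Late library, 0, 0, 1 and 0 in Reactivated, and 2 in every Basal library. Basal did not overlap with any other group: in Early, Late and Reactivated against Basal, Maff was the 1 member on the lower side in the first 2 comparisons and 1 of 2 in the last, where 2.36%, 2.43% and 2.43% of 4403 promoters lay on that side. The mean asinh score over the 4 fragments was 0 in each Early and Late library, and 2.29 ± 0.638 in Basal (SD, n = 3). All 4 Maff fragments are in the table with Basal scores, 3 of them with no other, so a mean over them had to be highest in Basal, and its test is given as a description only. The difference in Late against Basal was -2.29 with a standard error of 0.436 by limma across 4429 promoters (adjusted p = 0.0335), as 1 of 3 promoters or 0.0677% of those tested that passed. For the same difference in Early against Basal the adjusted p was 0.059, where 0% of promoters passed, and in Reactivated against Basal, with a difference of -2.13, it was 0.0652, where 0.0226% passed.

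The Maff call did not hold without the variance trend (limma adjusted p = 0.0526), with library sets entered as their means (1) or without Basal library 1 (0.311), Basal library 2 (0.168), Early library 1 (0.0646), Early library 3 (0.0757), Early library 4 (0.0804), Late library 3 (0.109) or Late library 4 (0.111) by limma. It rests on scores of 10 to 152 in 2 library sets, and the median Basal scores were 299, 194 and 13.

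Klf4 had a fragment scored in every Late library and in no other. At chr4:55522755-55535127 the scores were 15, 17, 76 and 46 in Late libraries 1 to 4. The asinh mean was 4.12 higher in Late than in Early with a standard error of 1.60 (limma adjusted p = 0.276) and 4.12 higher than in Basal (limma adjusted p = 0.343). In Reactivated against Late it differed by -4.12 (limma adjusted p = 0.141). Of all listed pairs, 87 had a score in each Late library and in no Early library. The median scores of these libraries were 18, 19, 160 and 99, so this contact lay below the median in each.

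The most widely scored Klf4 fragment, at chr4:55548696-55555900, had 22 in Basal library 3, 287, 199 and 101 in Early libraries 1, 3 and 4, and 992 and 760 in Late libraries 3 and 4, and none in Reactivated. Reactivated libraries 3 and 4 instead scored 6 fragments that no other group scored. They lay at chr4:55871138-55873561 with 7 and 13, at chr4:55967478-55968168 with 221 and 254, at chr4:55977361-55982948 with 514 and 595, at chr4:56006370-56014714 with 31 and 38, at chr4:56267245-56270572 with 292 and 358, and at chr4:65700136-65702141 with 1103 in library 4 alone. All but the last, the highest Klf4 score, lay within 1 Mb of the median. Scores at chr4:55256093-55260416 were 411 and 215 in Early libraries 3 and 4 and absent elsewhere. Of the 14 Klf4 fragments, 13 were scored in a single group and 0 were shared with another promoter.

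Klf4 had 0, 0 and 2 called interactions in Basal, 2, 0, 2 and 5 in Early, 1, 1, 2 and 2 in Late, and 0, 0, 5 and 6 in Reactivated. The groups overlapped, and the limma adjusted p lay between 0.81 and 1 over the 6 comparisons. Without Reactivated libraries 1 and 2, a choice made after seeing the data that leaves a single Reactivated set, Klf4 had 4.83 more called interactions in Reactivated than in Basal (limma adjusted p = 0.033), where 791 of 4403 promoters (18.0%) passed, 775 of them higher.

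Nfil3 had 8 of its 12 fragments scored in Late, and none in Reactivated. At chr13:52805791-52810960 the scores were 34, 43, 22 and 10 in Late libraries 1 to 4, with none in any other library. The asinh mean of this fragment was 3.86 higher in Late than in Early with a standard error of 1.55 (limma adjusted p = 0.276) and 3.86 higher than in Basal (limma adjusted p = 0.343). In Reactivated against Late it differed by -3.86 (limma adjusted p = 0.141). It and the Klf4 fragment scored in Late alone were the 2 members among the 87 pairs with a score in every Late and in no Early library.

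Another 4 Nfil3 fragments lay close together on chromosome 13, and the Late sets differed among them. Late libraries 1 and 2 scored chr13:52745973-52747087 at 61 and 87, chr13:52747090-52749565 at 58 and 60, and chr13:52755143-52756095 at 41 and 51. Late libraries 3 and 4 scored none of these 3 but scored the directly following fragment, chr13:52756098-52757805, at 1136 and 838. The first of the 4 was also scored in Basal libraries 1 and 2, at 1320 and 729, which makes it 1 of 2 Nfil3 fragments scored in 4 libraries. Late libraries 1 and 2 also gave 55 and 55 at chr13:52952563-52954880. The highest Nfil3 score, 1390 in Late library 3 at chr13:53184757-53185378, had no counterpart in Late library 4, and that fragment had 48 in Late library 2 and 17 in Basal library 3. The 3 fragments scored in Early alone had 118 and 133 in Early library 1 and 152 and 69 in Early libraries 3 and 4.

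Called interactions of Nfil3 numbered 2, 2 and 2 in Basal, 2, 0, 1 and 1 in Early, 5, 6, 4 and 2 in Late, and 0 in all 4 Reactivated libraries. Late libraries thus lay at or above the highest Early library. The mean was 4.25 ± 1.71 in Late against 1 ± 0.816 in Early (SD, n = 4 each), with a limma adjusted p of 0.514. Reactivated did not overlap with Late, which held for 2.52% of promoters on the lower side, and the limma adjusted p was 0.203. It also did not overlap with Basal (limma adjusted p = 0.659), which held for 2.43% of promoters on the lower side. Leaving out Reactivated libraries 1 and 2 was a choice made after seeing the data, and it leaves a single Reactivated set. The difference of -4.25 to Late then passed (limma adjusted p = 0.00717), where 705 of 4403 promoters passed, 45 of them lower. Of the 12 Nfil3 fragments, 5 were scored in Late alone and entered the table through it. In the remaining Reactivated libraries, which scored 11574 and 12133 pairs in all, Nfil3 had no score.

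**Figure D3:**
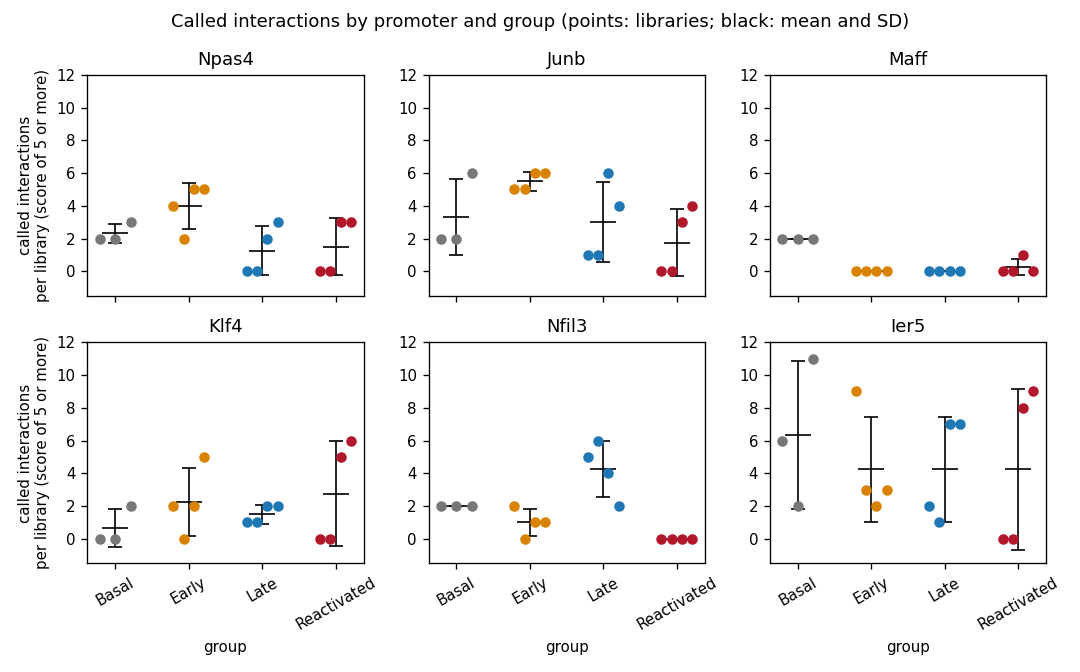
Called interactions (fragments with a score of 5 or more) per library on the vertical axis for each of the 6 promoters, by group on the horizontal axis; points are libraries and black marks the mean and SD (n = 3 in Basal, n = 4 in the others). Maff stands at 0 throughout Early and Late and at 2 throughout Basal, and Nfil3 reaches 4.25 on average in Late and 0 in Reactivated.

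Ier5 had the highest single scores of the 6 promoters. The fragment at chr1:156949971-156951410 had 2344 and 43 in Basal libraries 1 and 3, 63 in Early library 2, and 8211 and 9587 in Reactivated libraries 3 and 4, and none in Basal library 2 or in Late. Its asinh mean was 4.89 higher in Reactivated than in Late with a standard error of 2.26 (limma adjusted p = 0.152). The neighbouring fragment, chr1:156948543-156949968, was scored at 2058 in Basal library 1 and 95 in Early library 1. It was listed also with Creb1, the gene of the transcription factor CREB, although the median position of the 9 Creb1 fragments lies 92.3 Mb away on the same chromosome. It was the only one of the 31 Ier5 fragments shared with another promoter.

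Basal libraries 1 and 2 differed at Ier5. Of 14 fragments of the 6 promoters scored in either, 10 (71.4%) were scored in both, near the 75.7% over the whole table. The 4 scored in library 1 alone were all fragments of Ier5, with 111, 2058, 2344 and 513. Basal libraries 1 and 2 agreed on chr1:156848962-156853938, with 1591 and 976, and on the adjoining chr1:156853941-156862364, with 561 and 371. Neither was scored in another library.

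Reactivated libraries 3 and 4 scored a run of Ier5 fragments close to the strongest one. They gave 861 and 1235 at chr1:156958343-156959550, 61 and 72 at chr1:156959583-156960316, and 1368 and 1766 at chr1:156960319-156961396. The second of these 3 was also scored at 261 in Early library 1 and the third at 513 in Basal library 1. Scores of 2890 and 3271 at chr1:157242481-157243906 and of 352 and 314 at chr1:157049307-157053616 were seen in these libraries alone. Late libraries 3 and 4 scored another set of fragments, with 1380 and 900 at chr1:156931855-156935244, 810 and 620 at chr1:157022738-157023247, 831 and 629 at the adjoining chr1:157023250-157023978, and 744 and 501 at chr1:157083157-157089640. Each of these 4 was also scored in Basal library 3, at 13, 11, 10 and 14, and the second of them in Reactivated libraries 3 and 4, at 628 and 645.

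Ier5 had 6, 2 and 11 called interactions in Basal, 9, 3, 2 and 3 in Early, 2, 1, 7 and 7 in Late, and 0, 0, 8 and 9 in Reactivated. The means of Early, Late and Reactivated were each 4.25, with SDs of 3.20, 3.20 and 4.92 (n = 4 each), against 6.33 ± 4.51 in Basal (SD, n = 3). Each of these 3 groups overlapped with Basal, and the limma adjusted p was 1, 0.96 and 0.856. Without Basal library 3 the difference of -2.08 became 0.25 for each of the 3. Of the 31 fragments, 11 were scored in a single library, 5 of them in Early library 1 alone.

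The counts over the 6 promoters were as follows. By limma on single pairs, 0 of the 88 fragments passed in each of the 6 comparisons, as did 0% of all 36353 pairs, and 10 to 27 of the 88, or 11.4% to 30.7%, had an unadjusted p under 0.05, against 10.6% to 26.2% of all pairs. A pair that did not pass is not shown to be equal, since a fragment is rarely scored in more than a few libraries. On mean scores, Maff in Late against Basal was the only member to pass, and in Late against Early and Reactivated against Late 0 members passed, where 0.0903% and 0.0677% of all promoters did. On called interactions 0 members and 0% of 4403 promoters passed, and 0 to 2 members had an unadjusted p under 0.05 in each comparison, against 218 to 504 of all promoters. No member lay wholly above the other group in any comparison. The share of all promoters on that side was 1.41% in Early against Basal, 2.07% in Late against Early, 0.0681% in Reactivated against Late, 4.09% in Late against Basal, 0.0454% in Reactivated against Basal and 0.0227% in Reactivated against Early. In Late against Early 0.704% of promoters and 0 members lay wholly on the lower side.

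In Early against Basal 3 members had more called interactions (Npas4, Junb and Klf4) and 3 had fewer (Maff, Nfil3 and Ier5). In Late against Early 1 had more, Nfil3, and 3 had fewer. In Reactivated against Basal 1 had more, Klf4, and 5 had fewer, with a median difference of -1.67 against 0.167 over all promoters, and this median carries the 2 Reactivated libraries that held 0 scores for the members. Comparisons that share a group are not independent of each other.

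Which libraries scored the same member fragments did not follow the group names alone. Of the 27 member fragments scored in Basal library 3, 13 (48.1%) were also scored in Late libraries 3 and 4, which is 59.1% of the 22 scored there. These 13 comprised 5 of Ier5, 4 of Junb, 2 of Nfil3 and 1 each of Npas4 and Klf4. With the other Basal set, libraries 1 and 2, Basal library 3 shared 3 member fragments, or 11.1% of its 27 and 21.4% of the 14 there. Over the whole table, Basal library 3 shared 33.3% of its pairs with Late libraries 3 and 4 and 14.3% with Basal libraries 1 and 2, so the same order of sharing was present among all promoters. Early library 2 shared 5 of its 10 member fragments with Early libraries 3 and 4, 4 of them of Junb, against 17.0% of its pairs over the whole table. No test was made of these shares.

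**Figure D4:**
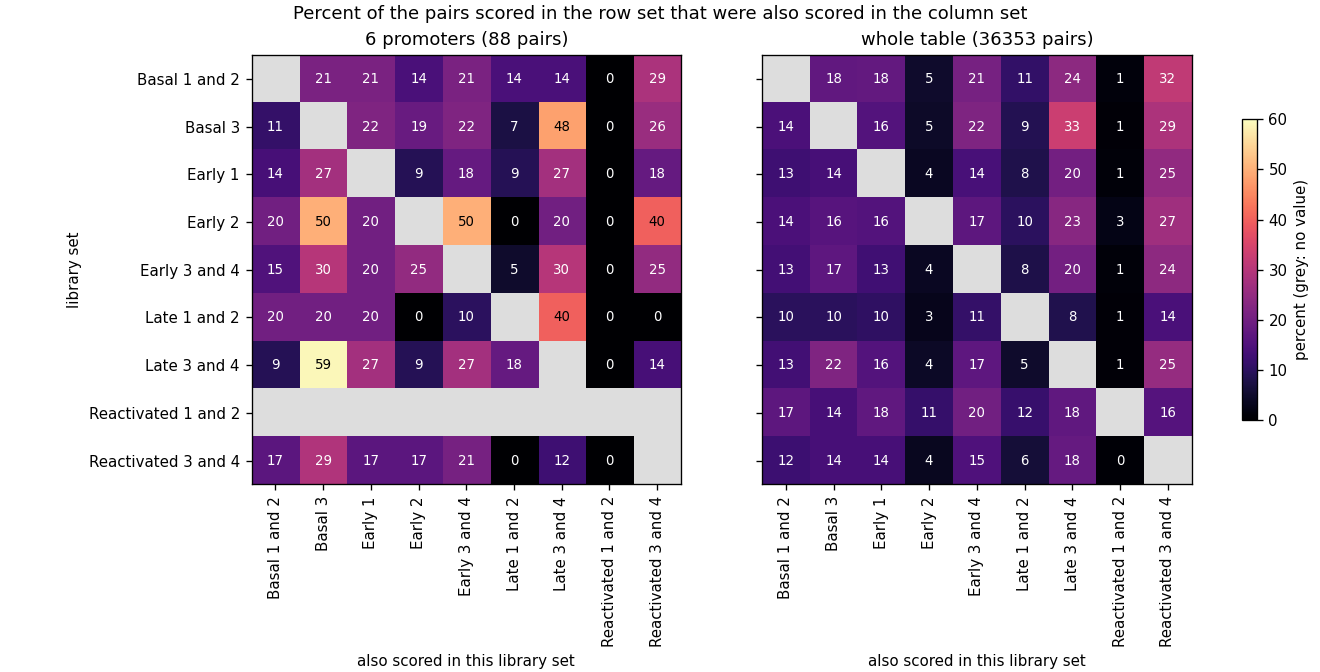
Percent of the pairs scored in the library set of the row that were also scored in the set of the column, for the 88 pairs of the 6 promoters (left) and all 36353 pairs (right); grey marks no value. In the left panel the highest share is 59.1%, of Late libraries 3 and 4 with Basal library 3, where the whole table has 22.2%.

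Within a library set, the scores of member fragments mostly differed in the same direction. Of fragments scored in both libraries of a set, Basal library 1 was higher than library 2 for 10 of 10, with ratios of 1.30 to 2.08 and a median of 1.62, against a median of 1.70 over the whole table. Early library 3 was higher than library 4 for 14 of 16, with a median ratio of 1.99, against 1.80 over the whole table. Late library 1 was lower than library 2 for 6 of 8, with ratios of 0.701 to 2.33 and a median of 0.843, against 0.867 over the whole table. Late library 3 was higher than library 4 for 18 of 18, with ratios of 1.21 to 3 and a median of 1.48, against 1.43 over the whole table. Reactivated library 3 was lower than library 4 for 15 of 19, with a median ratio of 0.858, against 0.884 over the whole table. The Junb fragment with 10 and 981 in the Early set, a ratio of 0.0102, was the lowest ratio among the members in any set.

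The profiles of the mean asinh score over the 15 libraries were most alike for Npas4 and Junb among the 15 pairs of members, with a Pearson r of 0.883. Klf4 and Ier5 had an r of 0.650, and Nfil3 had negative or near-zero values with each of the others, from -0.310 to 0.0804. These values carry the empty Reactivated libraries and the pairing of libraries, which all promoters share, and are given without a test. Among 3608 to 3613 other promoters with at least 3 listed fragments and no fragment in common, the closest to Npas4 were Dbnl, the gene of an actin-binding adaptor, with r of 0.951, and Nefl, the neurofilament light chain gene, with 0.941. Pik3c2a, a lipid kinase gene, and Soat2 were closest to Junb, with 0.900 and 0.894. Rnasek and Lhx6, an interneuron transcription factor gene, were closest to Maff, with 0.896 and 0.887. Mei4 and Bbs2 were closest to Klf4, each with 0.970, Whrn and Zfp422 to Nfil3, with 0.895 and 0.845, and Setd6 and Ets2 to Ier5, with 0.959 and 0.952.

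Other immediate early transcription regulators gave no called difference. Of 38 such genes, 18 had a promoter in the table, and by limma 0 of 18 passed on mean scores and 0 on called interactions in each of the 6 comparisons. In Early against Basal 6 of them had more and 10 had fewer called interactions, with a median difference of -0.125 against 0 over all promoters. Klf2, of the Krüppel-like family, averaged 3 ± 1.63 in the 4 Early libraries and 0.333 ± 0.577 in the 3 Basal ones (SD), and Jund, the AP-1 relative of Junb, had 2.25 ± 0.5 against 3.67 ± 0.577. In Reactivated against Late 4 had more and 11 fewer, with Sik1, a salt-inducible kinase gene, at 2.5 ± 2.89 in Reactivated against 0.25 ± 0.5 in Late, and the orphan nuclear receptor gene Nr4a3 at 3 ± 3.46 against 4.25 ± 3.20 (SD, n = 4 each).

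Relatives and partners of the 6 factors, 25 of 46 in the table, likewise had 0 passing by limma on either measure in each comparison. In Late against Early 14 had more and 9 fewer called interactions, with a median difference of 0.5 against 0 over all promoters. Hlf, a PAR bZIP factor gene that binds the same sites as Nfil3, had 7.75 ± 3.30 in Late against 3.75 ± 3.30 in Early, and Npas3, a relative of Npas4, had 0 in the Late libraries and 1.5 ± 0.577 in the Early ones (SD, n = 4 each). Mafg, like Maff a small Maf gene, had 3.75 ± 4.35 in Reactivated against 1.67 ± 0.577 in Basal (limma adjusted p = 1).

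Upstream regulators of immediate early promoters, 23 of 41 in the table, had 0 passing by limma on either measure in each comparison. In Early against Basal 13 had more and 8 fewer called interactions. Nfatc3, a calcineurin-dependent factor gene, averaged 4.25 ± 1.71 in the 4 Early libraries and 0.667 ± 0.577 in the 3 Basal ones (SD), and Elk4, a partner of SRF, had 0.25 ± 0.5 against 2 ± 1. Creb1 had 2.75 ± 3.20 in Reactivated against 1 ± 0.816 in Late (SD, n = 4 each; limma adjusted p = 0.946).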

How the data were processed

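The values analysed are the deposited interaction scores of the authors, 1 column per library, per the file headers. Positions are on mm9, per the submitters' processing notes. No source used here names the aligner, the filters or the program behind the score. Per the labels, hippocampal nuclei were fixed with 2% paraformaldehyde, digested with HindIII, amplified in 17 PCR cycles and captured with 10000 baits for 5000 promoters. Whole-number scores that scale with library sums can carry differences in depth. The collection days in the labels' treatment field run with the sample order, so groups come from the titles.

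Group differences were tested with limma 3.58.1 in R 4.3.3 (robust, variance trend, statmod 1.5.0) on asinh(score), on its mean per promoter and on log2(1 + calls), with all 15 libraries in 1 fit and Benjamini-Hochberg adjustment over the whole table at 0.05. No filter was applied. A call is a score of 5 or more. A set joins libraries of the same group with 40% or more of the smaller library's fragments in common. The method was tested on simulated data. The planted differences there were larger and more uniform within a group than those of the fragments named here. That test therefore cannot tell how often differences such as these would be found. The replicates are pools of mice, and nothing states whether library sets are separate pools, so p-values may measure technical spread. Named fragments of each promoter are the most often scored, the highest scored and those scored in every library of a group and in none of another; further fragments in the text, the Early pair of Junb among them, were chosen after their values were seen. From each list, named genes come from those with the largest gain or loss in a comparison. The genes most like a member had the highest Pearson r. Members and lists were chosen with earlier results of these data known. Python 3.11.15 (pandas 2.3.3, numpy 2.4.6, matplotlib 3.10.9) gave the descriptive values and figures.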

Additional observations from a re-analysis of the deposited data

Results flagged for a closer look

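In Early, Ier5 had 9 called interactions in library 1, against 3, 2 and 3 in libraries 2, 3 and 4, and this library stood apart from the rest of its group. Its mean asinh score over the 31 Ier5 fragments was 1.48, which also stood apart. Early library 1 scored 6956 pairs in all, close to Early library 4 with 6687, and shared at most 14.5% of fragments with another Early library.

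In Reactivated, Maff had 1 called interaction in library 3 and 0 in the other 3 libraries, with a mean asinh score of 0.623 in library 3. This is a single fragment with a score of 6. Called interactions and mean asinh scores of the same promoter and group were examined separately, which gave 30 sets of 4 values. Of these, 4 were flagged. A chance rate of about 1 in 20 holds for 4 independent values without ties. Many values here are 0 and libraries of a set are not independent, so that rate does not apply to these flags. With 0 in the other 3 libraries, any score in Reactivated library 3 stands apart, and the Maff flags are a description only. The flags are the Ier5 and Maff cases given here, each on both measures, which are not independent.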

How the results depend on the processing

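Of 1203 values recomputed under alternatives, 1112 were counted as keeping their direction and their side of the threshold or count. A main difference of 0 was never counted as reversed, nor was a difference that fell to 0. The 1112 therefore include differences that moved. In called interactions, Ier5 ran from -1.58 to 4.25 in Reactivated against Late and from -0.917 to 1.58 in Late against Early. Both differences were 0 in the main fit. Junb in Late against Early ran up to 0. The cause of the changes was not tested. Without the variance trend, 2 of 88 member fragments passed in Late against Early, 2 in Reactivated against Late and 2 in Late against Basal, beside 57, 59 and 201 of 36353 pairs, and 1 member passed on called interactions in Reactivated against Late, beside 6 of 4403 promoters. Maff then no longer passed on mean score in Late against Basal (0 members), nor with library sets as means (0) or with the replicate block (0 members; difference -2.27, limma adjusted p = 0.0621). On mean scores with low values filtered, 1 member passed in Early against Basal, where 1 of 3671 promoters did. With quantile normalization 1 passed in Early against Basal and 1 in Reactivated against Basal, where 16 and 19 of 4429 promoters did. In Reactivated against Basal 1 also passed with fragments of 1 promoter only, where 5 of 4309 promoters did. With the last, Junb in Late against Basal had a difference of 0.333 in called interactions, against -0.333.

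Without Reactivated libraries 1 and 2, chosen after seeing the data, 18 member fragments passed in Reactivated against Late, 14 in Reactivated against Basal, 14 in Reactivated against Early, 2 in Late against Early and 2 in Late against Basal. The first 3 are 20.5%, 15.9% and 15.9% of the 88, below the 25.1%, 24.9% and 25.1% of all pairs that passed. The last 2 stand beside 63 and 236 of 36353 pairs, a smaller share than among the members. Fragments scored in Late alone, such as those of Klf4 and Nfil3 scored in every Late library, are in the table through Late. The share among the members is therefore a description only. This alternative compares a single Reactivated set. On mean scores, 2 of 6 members then passed in Reactivated against Late, 2 in Reactivated against Basal and 1 in Reactivated against Early, where 43.8%, 45.6% and 45.0% of promoters passed, and 1 in Early against Basal, where 0.203% passed. On called interactions 1, 1 and 2 members passed in Reactivated against Late, Late against Basal and Reactivated against Basal, where 16.0%, 0.0908% and 18.0% of promoters did. Differences in called interactions changed sign to 0.667 for Npas4, 0.167 for Junb and 2.17 for Ier5 in Reactivated against Basal, and to 0.5 for Junb in Reactivated against Late.

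Leaving out a library at a time gave 0 to 7 member fragments passing in Early against Basal and 0 to 8 in Late against Basal, the most without Basal library 3, where 5.76% and 6.15% of all pairs passed. It gave 0 to 4 in Late against Early, the most without Early library 1, where 0.256% passed. It gave 0 to 9 in Reactivated against Late, 0 to 11 in Reactivated against Basal and 0 to 8 in Reactivated against Early, the most without Reactivated library 1 or 2, where 10.9% to 13.6% passed. On mean scores, 0 to 1 members passed in each comparison with Basal. Without Basal library 3, 1 passed in each, where 66, 68 and 62 of 4429 promoters did in Early, Late and Reactivated against Basal. In Early against Basal 1 also passed without Reactivated library 1, where 6 promoters did. Differences in called interactions ran from -0.25 to 0.833 for Npas4 in Reactivated against Late, -1.33 to 1 for Junb in Late against Basal, -1.5 to 0.167 for Klf4 in Late against Early, -0.583 to 1.42 for Klf4 in Reactivated against Early, and -4.25 to 0.25 for Ier5 in each comparison with Basal.

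Libraries with the same number did not deviate together, with r of -0.0468 to 0.0665 over 21 pairs and 0 pairs over 0.1, so the numbers do not pair libraries. Depth is unknown, and 84.7% of all cells held no score, so a missing contact cannot be told apart from a contact below the listing.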
